A study of Mus musculus with 10 samples.

Results

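The capillary lipid uptake genes are 10 genes whose products take part in lipid uptake at the capillary wall or regulate it: Gpihbp1, Lpl, Lipg, Angptl4, Cd36, Slc27a3, Slc27a4, Fabp4, Fabp5 and Pparg. They were chosen by name, were found by matching the Ensembl identifiers of the deposited tables to mouse symbols, and are 10 of 55385 genes listed. Their RNA was measured in hepatic endothelial cells of mice by bulk RNA sequencing on a BGISeq instrument, in 5 libraries labelled Alk1-HEC-KO (genotype KO) and 5 labelled Control (genotype WT). Alk1 is another name of Acvrl1, the endothelial receptor for BMP9 and BMP10. Hepatocytes were removed on a Nycodenz density gradient and endothelial cells were captured with magnetic beads against CD146, the product of Mcam. The strain and age of the mice, the promoter behind the knockout, the deleted exons and any pooling of animals were not stated in the labels.

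Total estimated counts lay between 23489494 and 23602771 per library. Acvrl1, the targeted gene (chromosome 15 from 101128522 to 101145336, plus strand, GRCm38), was at 239, 246, 250, 258 and 245 CPM (the count scaled to an equal library total) in Alk1-HEC-KO libraries 1 to 5, against 124, 125, 136, 114 and 135 CPM in controls 1 to 5. Every library labelled Alk1-HEC-KO was thus above every control, a 1.95-fold difference (edgeR adjusted p = 1.7e-07; exact two-sided permutation p = 0.0079, the smallest that 5 against 5 can give). This goes against the label. Counts per gene do not show which exons were read, and Acvrl1 overlaps the antisense gene Gm16031. The libraries are therefore called KO-labelled, and each direction below is that of the KO-labelled libraries against the controls. The 10 pan-endothelial markers summed to between 11500 and 12400 CPM in the KO-labelled libraries and between 11300 and 12900 CPM in controls. Within this sum 4 rose (Emcn, Mcam, Tie1 and Pecam1), 2 fell (Kdr and Tek) and 4 did not pass. Mcam, the gene of the capture antigen CD146, was at 541 ± 35.8 CPM in the KO-labelled libraries and 330 ± 44.4 CPM in controls (SD, n = 5 each, edgeR adjusted p = 0.00011). How this bears on which cells were captured was not tested. Of 10 markers of liver sinusoidal endothelium 9 fell, and their sum was 16500 to 18700 CPM in the KO-labelled libraries and 24000 to 27200 CPM in controls. Of 8 genes listed as markers of continuous capillaries 6 rose (Cd34, Ly6c1, Cav1, Rgcc, Sparcl1 and Col15a1) and 2 fell (Plvap and Aqp1). Their sum was 8780 to 10300 CPM in the KO-labelled libraries and 9350 to 10900 CPM in controls. Most of that sum was Aqp1, at 7330 ± 756 CPM in the KO-labelled libraries and 8830 ± 604 CPM in controls (SD, n = 5 each). Plvap was at 619 ± 42.3 CPM in the KO-labelled libraries and 787 ± 30.1 CPM in controls (SD, n = 5 each). The 6 that rose averaged from 0.508 CPM (Rgcc) to 111 CPM (Cav1) in controls. In bulk RNA, fewer cells of a type and less RNA per cell cannot be told apart.

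Triglyceride reaches the capillary wall inside lipoproteins. Lipoprotein lipase, made mostly by parenchymal cells and macrophages, is carried across the endothelium and held at its surface by GPIHBP1, and the fatty acids it releases are taken up with the help of CD36 and fatty acid transport proteins and bound in the cytoplasm by fatty acid binding proteins. These genes are best known from heart, muscle and fat capillaries, whose endothelium is continuous, while the liver sinusoid is fenestrated and lets small lipoproteins through to the hepatocytes. PPARγ, a nuclear receptor activated by fatty acids, binds as a dimer with RXR to repeats of AGGTCA spaced by 1 base, and Cd36, Fabp4, Lpl and Angptl4 are among its known target genes.

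Promoter windows were at hand for 4 of the 10 genes (Cd36, Pparg, Slc27a3 and Slc27a4), as 6 windows of 300 bases from 250 before to 50 after a RefSeq transcript start on GRCm38.p6. Those of Cd36 and Pparg are shown because both genes were called and a window was at hand. Each window was searched on both strands for the PPAR and RXR half-site AGGTCA, for the repeat AGGTCANAGGTCA with up to 3 mismatches, and for GGCGCC, the GC-rich element bound by the SMAD proteins that ALK1 activates. Capital letters mark a match to any of them. The Cd36 window is on the minus strand at chr5:17835847-17836146, inside the span of the annotated gene.
Cd36: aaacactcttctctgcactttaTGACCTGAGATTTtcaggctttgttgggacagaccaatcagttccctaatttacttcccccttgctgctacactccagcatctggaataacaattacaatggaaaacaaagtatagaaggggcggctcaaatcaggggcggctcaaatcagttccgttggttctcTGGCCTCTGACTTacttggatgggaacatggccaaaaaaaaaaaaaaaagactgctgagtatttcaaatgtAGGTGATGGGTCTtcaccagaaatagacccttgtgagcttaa
The 2 Pparg windows with a match are on the plus strand at chr6:115360894-115361193 and chr6:115362099-115362398, in that order below.
Pparg, first start: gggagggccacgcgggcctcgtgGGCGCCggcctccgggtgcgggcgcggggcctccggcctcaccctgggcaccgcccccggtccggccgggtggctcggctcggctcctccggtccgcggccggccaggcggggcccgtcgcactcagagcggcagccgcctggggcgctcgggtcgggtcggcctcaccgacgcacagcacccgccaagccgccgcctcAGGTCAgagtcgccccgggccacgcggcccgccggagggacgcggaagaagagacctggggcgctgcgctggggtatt
Pparg, second start: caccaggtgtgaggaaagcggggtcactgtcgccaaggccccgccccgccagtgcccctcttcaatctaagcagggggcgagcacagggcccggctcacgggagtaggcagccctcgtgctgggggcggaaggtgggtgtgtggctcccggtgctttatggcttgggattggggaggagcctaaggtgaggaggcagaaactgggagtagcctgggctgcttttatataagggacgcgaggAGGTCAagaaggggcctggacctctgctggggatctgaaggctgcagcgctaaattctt
The Cd36 window held 3 matches to the repeat, with 2 or 3 mismatches. The first of them includes its AGGTCA, which lies on the opposite strand and so reads TGACCT. Each of the 2 Pparg windows held 1 AGGTCA, and the first also held 1 GGCGCC in a sequence of 80.3% G and C. Neither the third Pparg window nor those of Slc27a3 and Slc27a4 held any of them. Of all 32851 mouse windows of this length, 16.3% held AGGTCA, 24.6% the repeat with up to 3 mismatches and 11.9% GGCGCC. A match is a run of letters and says nothing of binding in these cells.

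Of the 10 genes, 3 were higher in the KO-labelled libraries (Angptl4, Pparg and Cd36), 1 was lower (Fabp4) and 6 did not pass the test (adjusted p under 0.05 over all genes, edgeR's quasi-likelihood test). All 10 passed the filter on low counts. Of the 15043 genes tested, 19.7% were called, 10.6% as higher (1593 genes) and 9.08% as lower (1366 genes). On library size alone the split was 1968 higher and 1024 lower, and with limma on log2(TPM + 1) it was 1840 higher and 685 lower. The same 4 genes, Angptl4, Pparg, Cd36 and Fabp4, were called in the same directions under each of the 22 other settings and left-out libraries tried. The groups did not overlap in CPM for 4 of the 10, 3 lying above the controls and 1 below, against 15.4% of all genes tested (8.4% above and 7.05% below). The median log2 fold change of the 10 was 0.19, and that of all genes was 0. With 10 genes, 3 calls upward and 1 downward are described here gene by gene, and nothing is claimed of the group.

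**Figure D1:**
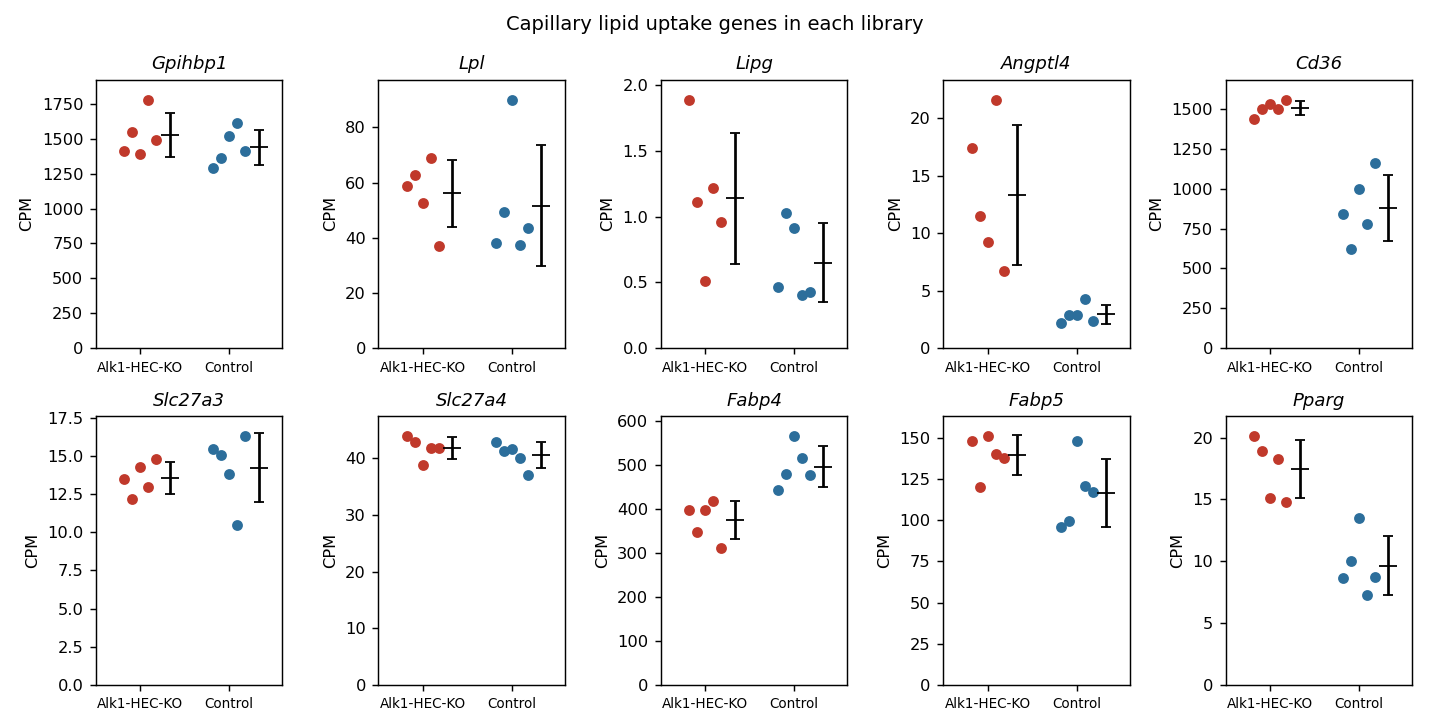
CPM (y axes, linear, from 0) of the 10 capillary lipid uptake genes in each of the 5 KO-labelled libraries (red, left) and the 5 controls (blue, right), in the order of library number, with mean and SD in black. Angptl4, Cd36 and Pparg lie wholly above the controls, Fabp4 lies wholly below them, and the groups overlap for the other 6.

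The docking protein of the lipase was abundant in both groups and did not pass the test. Gpihbp1 (chromosome 15 from 75596628 to 75599481, plus strand) was at 1410, 1550, 1390, 1780 and 1490 CPM in KO-labelled libraries 1 to 5, against 1290, 1360, 1520, 1610 and 1410 CPM in controls 1 to 5. The groups overlapped, with means of 1520 ± 156 CPM in the KO-labelled libraries and 1440 ± 128 CPM in controls (SD, n = 5 each; log2 fold change 0.08 ± 0.08 SE, edgeR adjusted p = 0.52). As deposited in TPM (a level scaled to transcript length and library) the lowest KO-labelled library stood at 3490 and the highest control at 3480, so the groups touched without overlapping, and limma on log2(TPM + 1) gave an adjusted p of 0.14. In that fit the median log2 fold change of all genes was 0.081. Gpihbp1 ranked 26th of all genes by mean TPM in the KO-labelled libraries and 29th in controls.

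Lpl, the lipase that Gpihbp1 docks (chromosome 8 from 68880491 to 68907448, plus strand), was at 58.9, 62.9, 52.5, 69 and 37.2 CPM in KO-labelled libraries 1 to 5 and at 38.1, 49.2, 90.1, 37.5 and 43.5 CPM in controls 1 to 5. Control 3 stood far above the other controls, and the groups overlapped throughout. Lpl averaged 56.1 ± 12.1 CPM in the KO-labelled libraries and 51.7 ± 22 CPM in controls (SD, n = 5 each; log2 fold change 0.12 ± 0.27 SE, edgeR adjusted p = 0.82). Without control 3 the log2 fold change was 0.41 (adjusted p = 0.13), and without controls 4 and 5 it was -0.09 (adjusted p = 0.91). The spread of Lpl ran with that of Kupffer cell and macrophage markers. The sum of 12 such markers was 1770, 1770, 1070, 1780 and 744 CPM in KO-labelled libraries 1 to 5 and 961, 1460, 2670, 860 and 1460 CPM in controls 1 to 5. Control 3 was highest and KO-labelled library 5 lowest in both measures, none of the 12 markers passed the test with edgeR, DESeq2 or limma-voom (1, Marco, at an unadjusted edgeR p under 0.05), and the part of these cells in Lpl was not tested. Among genes that averaged 5 CPM or more, those with the profile nearest to Lpl over the 10 libraries were Csf2ra and Csf1r, the receptor chain for GM-CSF and the receptor for CSF1, named after their values were seen. Transcripts of Lpl share stretches of at least 100 bases at 95% identity or more with 44 other genes (the longest 184 bases), so its level is uncertain.

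**Figure D2:**
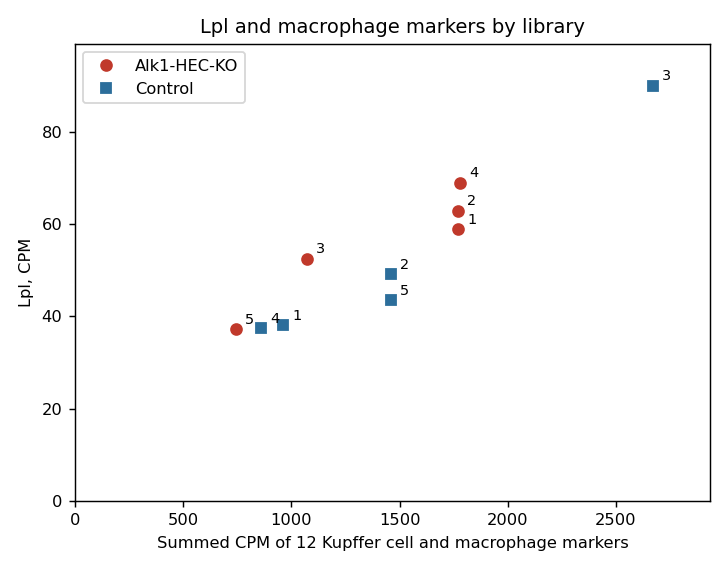
Lpl in CPM (y axis) against the summed CPM of 12 Kupffer cell and macrophage markers (x axis), both linear and from 0, with 1 point for each of the 5 KO-labelled libraries (red circles) and 5 controls (blue squares), numbered by replicate. Control 3 is highest on both axes (90.1 and 2670 CPM) and KO-labelled library 5 lowest on both (37.2 and 744 CPM).

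Lipg, which encodes endothelial lipase and acts mainly on phospholipids of high density lipoproteins (chromosome 18 from 74939322 to 74961263, minus strand), was barely detected. It had 45, 27, 12, 29 and 23 counts in KO-labelled libraries 1 to 5 and 11, 24, 21, 9 and 10 counts in controls 1 to 5. The groups overlapped, with means of 1.14 ± 0.5 CPM in the KO-labelled libraries and 0.648 ± 0.3 CPM in controls (SD, n = 5 each; log2 fold change 0.81 ± 0.37 SE, edgeR adjusted p = 0.15).

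Angptl4, which encodes a secreted inhibitor of lipoprotein lipase and is induced by fatty acids, fasting and hypoxia, changed most among the 10 (chromosome 17 from 33773750 to 33781830, minus strand). It was at 17.4, 11.5, 9.22, 21.6 and 6.73 CPM in KO-labelled libraries 1 to 5, against 2.19, 2.92, 2.88, 4.27 and 2.35 CPM in controls 1 to 5. The KO-labelled libraries spread widely, with library 4 highest and library 5 lowest, but each exceeded every control. Its mean was 13.3 ± 6.08 CPM in the KO-labelled libraries and 2.92 ± 0.822 CPM in controls (SD, n = 5 each), a 4.55-fold rise (log2 fold change 2.19 ± 0.33 SE, edgeR adjusted p = 0.00099). Over the other settings and left-out libraries the log2 fold change ran from 1.84 to 2.36. Genes with the nearest profile over the 10 libraries were Apol9b (mean absolute difference 0.28 on the log2 scale, after subtracting each gene's control mean), Ltc4s, which encodes leukotriene C4 synthase (0.33), and Pltp, which encodes the phospholipid transfer protein of plasma (0.37). Even the nearest profile lay farther from Angptl4 than the 3 nearest of Cd36, Pparg or Fabp4 did from theirs.

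The surface receptor Cd36, which binds long-chain fatty acids and oxidised lipoproteins, had the highest TPM of the genes that rose (chromosome 5 from 17781690 to 17888801, minus strand). It was at 1440, 1500, 1530, 1500 and 1560 CPM in KO-labelled libraries 1 to 5, against 842, 622, 1000, 781 and 1160 CPM in controls 1 to 5. The KO-labelled libraries lay close together and above all controls, while the controls varied more, with control 5 highest and control 2 lowest. Cd36 averaged 1510 ± 45.6 CPM in the KO-labelled libraries and 881 ± 207 CPM in controls (SD, n = 5 each), a 1.71-fold rise (log2 fold change 0.77 ± 0.14 SE, edgeR adjusted p = 0.0021). Control 5 was also the control with the most Cd34, a marker of continuous capillaries, at 101 CPM against 47.5 to 65.2 CPM in the others. The KO-labelled libraries held 496 to 606 CPM of Cd34. Without control 5 the log2 fold change of Cd36 was 0.89 (adjusted p = 0.00024), and what Cd34-positive cells contribute was not tested. Nearest in profile were Ccdc102a (0.08), Stmn1 (0.11), which encodes the microtubule regulator stathmin, and Efnb2 (0.11), which encodes ephrin B2, a ligand of arterial endothelium.

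The 2 fatty acid transport proteins of the FATP family did not pass. Slc27a4 encodes FATP4 (chromosome 2 from 29802634 to 29817522, plus strand) and was at 43.9, 42.9, 38.8, 41.8 and 41.8 CPM in KO-labelled libraries 1 to 5 and at 42.9, 41.3, 41.7, 40.1 and 37 CPM in controls 1 to 5. Its libraries were even, and the groups overlapped (log2 fold change 0.04 ± 0.06 SE, edgeR adjusted p = 0.64). Slc27a3 encodes FATP3 (chromosome 3 from 90385239 to 90389938, minus strand) and was at 13.5, 12.2, 14.3, 13 and 14.8 CPM in KO-labelled libraries 1 to 5 and at 15.5, 15.1, 13.8, 10.5 and 16.3 CPM in controls 1 to 5. The KO-labelled libraries lay within the range of the controls (log2 fold change -0.07 ± 0.11 SE, edgeR adjusted p = 0.71).

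The 2 fatty acid binding proteins of the cytoplasm, whose genes both lie on chromosome 3, had estimates of opposite sign. Fabp4, the gene of the binding protein of adipocytes, capillaries and macrophages (10204088 to 10208576, minus strand), was at 397, 347, 397, 418 and 312 CPM in KO-labelled libraries 1 to 5, against 443, 479, 565, 516 and 478 CPM in controls 1 to 5. Every KO-labelled library was below every control, the highest at 418 and the lowest control at 443 CPM. Its mean was 374 ± 43.4 CPM in the KO-labelled libraries and 496 ± 46.3 CPM in controls (SD, n = 5 each), a 1.33-fold fall (log2 fold change -0.41 ± 0.09 SE, edgeR adjusted p = 0.0057). The adipocyte markers Lep and Adipoq were at or near 0. Lep was at 0 counts in all 10, and Adipoq had 5, 7, 5, 3 and 32 counts in KO-labelled libraries 1 to 5 and 0, 6, 2, 1 and 3 counts in controls 1 to 5. KO-labelled library 5 was also highest of the 10 for Cfd (231 counts), Cidec (30), Plin1 (16.4) and Retn (7). KO-labelled library 1 was highest for Lipe (1200) and Lpin1 (1010). The part of adipocytes in Fabp4 was not tested. Summed over 8 adipocyte markers, of which 3 passed the filter and none the test with edgeR, DESeq2 or limma-voom (1, Lipe, at an unadjusted edgeR p under 0.05), the level was 69 to 94.7 CPM in the KO-labelled libraries and 57.9 to 75.6 CPM in controls. Nearest to Fabp4 in profile were Apoe and Smpdl3a (0.06 each) and S100a1 (0.07), of which Apoe encodes a ligand of lipoprotein receptors.

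Fabp5, the gene of the epidermal form that capillaries also carry (10012548 to 10016607, plus strand), was at 148, 120, 151, 140 and 138 CPM in KO-labelled libraries 1 to 5 and at 96, 99.7, 148, 121 and 117 CPM in controls 1 to 5. The groups overlapped, with controls 3 and 4 both above KO-labelled library 2, and the means of 139 ± 11.9 CPM in the KO-labelled libraries and 117 ± 20.9 CPM in controls (SD, n = 5 each) did not pass the test (log2 fold change 0.26 ± 0.11 SE, edgeR adjusted p = 0.13). Fabp5 passed without control 3 (log2 fold change 0.36, adjusted p = 0.013) and with limma on log2(TPM + 1) (0.37, adjusted p = 0.016). In the limma fit the median log2 fold change of all genes was 0.081. Fabp5 shares up to 409 bases at 95% identity or more with 3 other genes, which held 0, 0 and 1.1 counts over all libraries. The ratio of Fabp5 to Fabp4 in TPM was 0.333, 0.31, 0.34, 0.302 and 0.396 in KO-labelled libraries 1 to 5, against 0.192, 0.185, 0.234, 0.209 and 0.218 in controls 1 to 5. The lowest KO-labelled ratio was above the highest control ratio, and Fabp4 remained the more abundant of the pair in all 10 libraries.

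Pparg, the gene of the nuclear receptor PPARγ, was also higher (chromosome 6 from 115360951 to 115490399, plus strand, overlapping the antisense gene Gm44079). It was at 20.1, 18.9, 15.1, 18.3 and 14.8 CPM in KO-labelled libraries 1 to 5, against 8.62, 10, 13.5, 7.24 and 8.75 CPM in controls 1 to 5. No KO-labelled library reached down to the highest control, control 3. It averaged 17.4 ± 2.34 CPM in the KO-labelled libraries and 9.63 ± 2.38 CPM in controls (SD, n = 5 each), a 1.81-fold rise (log2 fold change 0.86 ± 0.15 SE, edgeR adjusted p = 0.002). Nearest in profile were Anxa1, Btg1 and Il2rg (0.13 to 0.14), which encode annexin A1, an antiproliferative factor and the common gamma chain of interleukin receptors. Controls 3 and 4 were the highest and lowest controls for Pparg and for the summed Kupffer cell and macrophage markers (2670 and 860 CPM). KO-labelled library 5 was lowest of its group in both (744 CPM for the markers). The highest was library 1 for Pparg and library 4 for the markers (1780 CPM). The part of these cells in Pparg was not tested.

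Measured per length, the 10 genes covered a wide range of levels. In the KO-labelled libraries the order of mean TPM was Gpihbp1 (3850 ± 354), Cd36 (1030 ± 89.2), Fabp4 (847 ± 78.8), Fabp5 (283 ± 21.7), Lpl (23.4 ± 4.65), Slc27a4 (17.8 ± 1.04), Pparg (15.5 ± 1.93), Slc27a3 (13.4 ± 1.73), Angptl4 (11.3 ± 4.88) and Lipg (0.521 ± 0.223; SD, n = 5 each). In controls it was Gpihbp1 (3390 ± 92.2), Fabp4 (1050 ± 54.1), Cd36 (556 ± 147), Fabp5 (219 ± 31), Lpl (20.1 ± 7.92), Slc27a4 (16.2 ± 1.44), Slc27a3 (13.2 ± 2.49), Pparg (8.18 ± 2.1), Angptl4 (2.23 ± 0.373) and Lipg (0.276 ± 0.126; SD, n = 5 each). Cd36 and Fabp4 thus stood in opposite order in the 2 groups. Their ranges were apart within each group, as Cd36 was at 957 to 1180 TPM against 729 to 915 TPM for Fabp4 in the KO-labelled libraries, and at 397 to 769 TPM against 1010 to 1140 TPM for Fabp4 in controls. From Lpl down to Angptl4 in the KO-labelled libraries, and from Lpl down to Pparg in controls, each gene's range overlapped that of its neighbour in the order.

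The summed TPM of the 10 genes was 5800, 6140, 5790, 6620 and 6110 in KO-labelled libraries 1 to 5, against 5160, 4970, 5510, 5190 and 5580 in controls 1 to 5. TPM were used as deposited, and on log2(TPM + 1) the median log2 fold change of all genes was itself 0.081. In CPM the sum was 3550 to 4000 in the KO-labelled libraries and 2680 to 3400 in controls. Gpihbp1 made up 63.1% ± 2.39 of the sum in the KO-labelled libraries and 64.3% ± 2.26 in controls (SD, n = 5 each). Cd36 made up 16.9% ± 1.72 in the KO-labelled libraries and 10.4% ± 2.35 in controls, while Fabp4 made up 13.9% ± 1.52 in the KO-labelled libraries and 20% ± 0.833 in controls. The sum is thus set by 4 genes, and the receptor and the inhibitor that rose most in proportion, Pparg and Angptl4, made up under 1% of it. Transcript lengths implied by the ratio of counts to TPM, scaled to the median gene, differed little between the groups for any of the 10 (ratios of KO-labelled to control means 0.975 to 1.02, exact two-sided permutation p from 0.11 to 0.98).

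**Figure D3:**
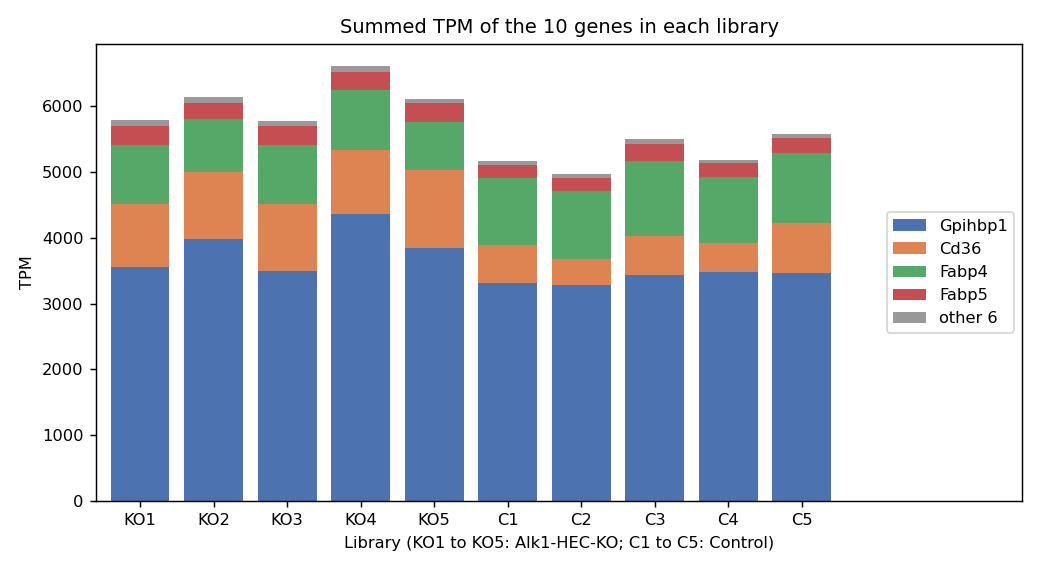
Stacked bars of the TPM of Gpihbp1, Cd36, Fabp4, Fabp5 and the other 6 genes together (y axis, linear, from 0) in each of the KO-labelled libraries (KO1 to KO5, left) and controls (C1 to C5, right). The Cd36 part is taller and the Fabp4 part shorter in each KO-labelled library than in any control, and the sums are 5790 to 6620 TPM in the KO-labelled libraries and 4970 to 5580 TPM in controls.

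The genes around these 10 were described with 9 lists: proteins that process or regulate lipases, other fatty acid binding and transport proteins, acyl-CoA synthetases, other PPARs with their partners, PPAR targets, known regulators of endothelial fatty acid transport, lipid droplets, beta-oxidation and lipoprotein receptors. Of 109 genes listed 96 were tested, and 12 rose, 8 fell and 76 did not pass. That is near the share of all genes called, 19.7%.

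**Figure D4:**
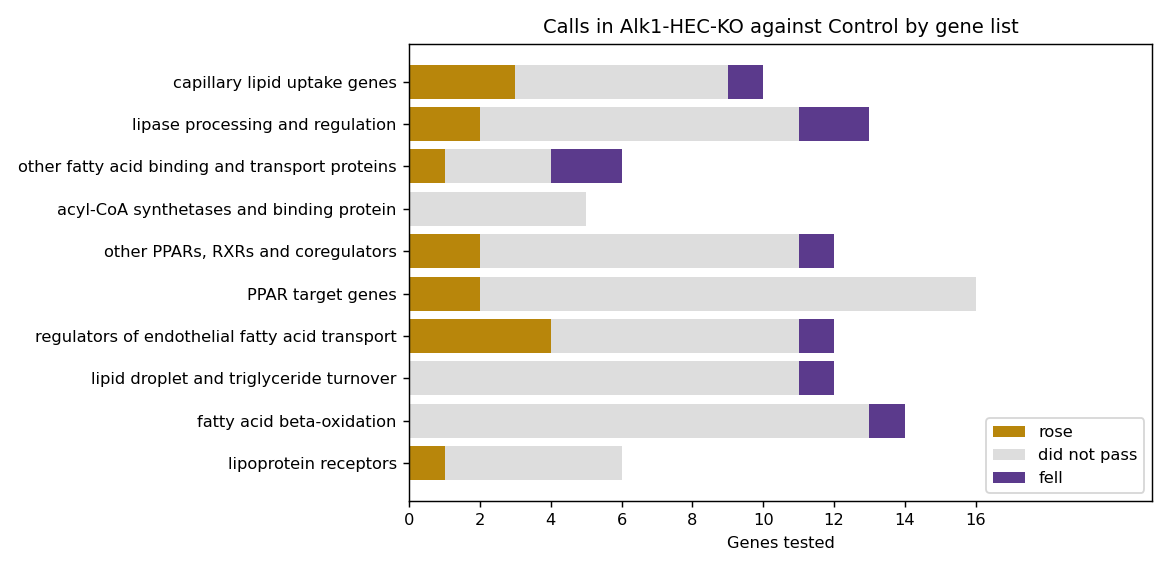
Number of tested genes (x axis, linear, from 0) that rose (gold), did not pass (grey) or fell (purple) in the KO-labelled libraries against the controls, for the 10 capillary lipid uptake genes and 9 lists of related genes. In the edgeR test, regulators of endothelial fatty acid transport held the most genes that rose, 4 of 12, and acyl-CoA synthetases, lipid droplets and beta-oxidation held none.

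Regulators of endothelial fatty acid transport held the widest changes, with 4 of 12 higher, 1 lower and 7 that did not pass (median log2 fold change 0.02). Meox2 and Tcf15 encode 2 transcription factors that form a dimer, which is known from heart endothelium to drive Cd36 and Lpl. Tcf15 was at 17.4, 16.3, 17.9, 20.1 and 15.3 CPM in KO-labelled libraries 1 to 5, against 0.883, 1.03, 0.48, 1.3 and 1.58 CPM in controls 1 to 5, a 16.4-fold rise (log2 fold change 4.04 ± 0.23 SE, edgeR adjusted p = 2.5e-07). Meox2 averaged 6.28 ± 0.923 CPM in the KO-labelled libraries and 0.724 ± 0.396 CPM in controls (SD, n = 5 each), a rise of 3.11 ± 0.29 (SE) on the log2 scale (adjusted p = 1.2e-05). Meox2 was named after its values were seen, as its mean lies under 5 CPM. Both were low in every control and higher in every KO-labelled library.

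Apelin and its receptor, a pathway known from mouse endothelium to restrain Fabp4 and fatty acid transport, rose together. Apln was at 128, 185, 108, 165 and 136 CPM in KO-labelled libraries 1 to 5, against 10.3, 2.96, 4.32, 2.07 and 11.4 CPM in controls 1 to 5, a 23.1-fold rise (log2 fold change 4.53 ± 0.46 SE, edgeR adjusted p = 0.00018). Aplnr averaged 9.91 ± 2.25 CPM in the KO-labelled libraries and 1.03 ± 0.732 CPM in controls (SD, n = 5 each), a 9.57-fold rise (adjusted p = 0.00031). Flt1, the receptor through which VEGFB acts, fell by 0.32 ± 0.05 (SE) on the log2 scale, to 645 ± 31.4 CPM in the KO-labelled libraries, against 807 ± 21.9 CPM in controls (SD, n = 5 each; adjusted p = 0.00063). Vegfb itself was at 36.5 ± 2.33 CPM in the KO-labelled libraries and 40.7 ± 2.19 CPM in controls (adjusted p = 0.084), and the coreceptor Nrp1 at 748 ± 73.6 CPM in the KO-labelled libraries and 850 ± 63.7 CPM in controls (SD, n = 5 each; adjusted p = 0.11).

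Of 16 tested PPAR targets outside the 10 genes, 2 rose, none fell and 14 did not pass (median log2 fold change -0.01). At an unadjusted edgeR p under 0.05, 2 were lower (Slc25a20 and Creb3l3), and DESeq2 called 1 lower (Creb3l3) and limma-voom 0. Mgll, which encodes monoglyceride lipase, was at 824, 738, 803, 821 and 906 CPM in KO-labelled libraries 1 to 5, against 483, 543, 580, 562 and 579 CPM in controls 1 to 5. Each KO-labelled library was above each control (log2 fold change 0.58 ± 0.07 SE, edgeR adjusted p = 7.6e-05). The glycerol channel gene Aqp7 averaged 1.61 ± 0.614 CPM in the KO-labelled libraries and 0.226 ± 0.081 CPM in controls (SD, n = 5 each; adjusted p = 0.00011), and was named after its values were seen. Plin2, a lipid droplet coat gene and common PPAR target, was at 194 ± 8.65 CPM in the KO-labelled libraries and 186 ± 12.8 CPM in controls (SD, n = 5 each; adjusted p = 0.5).

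Among the other PPARs, their partners and coregulators, 2 of 12 rose, 1 fell and 9 did not pass (median log2 fold change 0.09). Rxrb, a partner of PPARγ, was at 72.4 ± 3.69 CPM in the KO-labelled libraries and 63.2 ± 3.72 CPM in controls (SD, n = 5 each; edgeR adjusted p = 0.022), a call lost without KO-labelled library 4 (0.059) or 5 (0.063) or control 1 (0.05) or 5 (0.055), and in 8 of 22 alternatives in all, among them the replicate block (0.053). Rxrg, another partner, fell by 1.32 ± 0.23 (SE) on the log2 scale, to 1.9 ± 0.26 CPM in the KO-labelled libraries, against 4.75 ± 1.51 CPM in controls (SD, n = 5 each; adjusted p = 0.0016), and was named after its values were seen. Rxra, the partner best known in liver, was at 226 ± 7.27 CPM in the KO-labelled libraries and 219 ± 4.17 CPM in controls (SD, n = 5 each; adjusted p = 0.46).

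Of 13 tested genes that process or regulate lipases, 2 rose, 2 fell and 9 did not pass (median log2 fold change -0.09). Sdc1, which encodes syndecan 1, a heparan sulfate proteoglycan that binds lipoproteins and lipases, was at 65.8 ± 7.48 CPM in the KO-labelled libraries and 48 ± 8.55 CPM in controls (SD, n = 5 each; edgeR adjusted p = 0.022). Its call was lost without KO-labelled library 3 (0.058) or 5 (0.06) or control 3 (0.051). Lmf1, the maturation factor of lipases in the endoplasmic reticulum, fell by 0.26 ± 0.07 (SE) on the log2 scale, to 34 ± 0.961 CPM in the KO-labelled libraries, against 40.6 ± 3.94 CPM in controls (SD, n = 5 each; adjusted p = 0.017, and 0.17 with limma on log2(TPM + 1)). The call of Lmf1 was lost in 3 of 22 alternatives in all, among them without controls 4 and 5. Furin, the protease that cleaves lipases and ANGPTL4, was at 107 ± 6.57 CPM in the KO-labelled libraries and 93.8 ± 3.85 CPM in controls (SD, n = 5 each; adjusted p = 0.025). The call of Furin was lost without KO-labelled library 1 (0.062) or 5 (0.066) or control 4 (0.057) or 5 (0.058), and in 10 of 22 alternatives in all, among them the replicate block (0.061) and length offsets (0.12). Sel1l, which works with Lmf1, was at 194 ± 12.5 CPM in the KO-labelled libraries and 220 ± 12.2 CPM in controls (SD, n = 5 each). Its adjusted p was just under the threshold, 0.05 after rounding, and the call was lost in 14 of 22 other settings and left-out libraries (up to 0.55).

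Of 6 tested genes among the other fatty acid binding and transport proteins, 1 rose, 2 fell and 3 did not pass (median log2 fold change -1.07). Slc27a1, the gene of FATP1, averaged 3.87 ± 0.22 CPM in the KO-labelled libraries and 2.34 ± 0.483 CPM in controls (SD, n = 5 each; edgeR adjusted p = 0.0062). Slc27a2, the gene of FATP2 of liver and kidney, was at 3.15, 3.53, 1.65, 2.69 and 0.795 CPM in KO-labelled libraries 1 to 5 and at 6.68, 18.8, 5.93, 21.1 and 2.6 CPM in controls 1 to 5 (adjusted p = 0.038). Slc27a5, the gene of FATP5 of hepatocytes, averaged 1.77 ± 0.738 CPM in the KO-labelled libraries and 7.86 ± 6.11 CPM in controls (SD, n = 5 each; adjusted p = 0.031). Slc27a1 and Slc27a5 were named after their values were seen. Controls 2 and 4 were the highest for Slc27a2, and they also held the most hepatocyte RNA. The sum of 13 hepatocyte markers was 1090, 1280, 671, 749 and 602 CPM in KO-labelled libraries 1 to 5 and 950, 2000, 971, 2100 and 598 CPM in controls 1 to 5. The part of hepatocyte RNA in these values was not tested. The call of Slc27a2 was lost when any of the KO-labelled libraries (adjusted p from 0.059 to 0.083), control 2 (0.076) or control 4 (0.082) was left out. In all it was lost in 9 of 22 alternatives, among them limma-voom and no filter on low counts. With limma-voom neither Slc27a2 nor Slc27a5 was called lower, while DESeq2 called both.

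The steps after uptake showed few calls. None of the 5 tested acyl-CoA synthetase list genes passed with edgeR, DESeq2 or limma-voom. The 2 at an unadjusted edgeR p under 0.05, which also had the smallest p, were Acsl3 (log2 fold change -0.26, edgeR adjusted p = 0.15) and Acsl4 (-0.13, 0.15). Of 14 beta-oxidation genes only Cpt1b passed, the muscle form of the enzyme that admits fatty acids to mitochondria. Cpt1b was at 6 ± 0.654 CPM in the KO-labelled libraries and 8.29 ± 0.727 CPM in controls (SD, n = 5 each; adjusted p = 0.0085, and 0.11 with limma on log2(TPM + 1)). Its call was lost in 3 of 22 alternatives in all, among them without controls 4 and 5. Of 12 tested lipid droplet genes 1 fell, the acyltransferase gene Gpat3, at 6.69 ± 0.807 CPM in the KO-labelled libraries and 9.25 ± 1.45 CPM in controls (SD, n = 5 each; adjusted p = 0.024). The call of Gpat3 was lost when any of KO-labelled libraries 2, 4 and 5 and controls 2, 4 and 5 was left out (adjusted p from 0.051 to 0.058), and in 10 of 22 alternatives in all, among them the replicate block (0.071) and limma on log2(TPM + 1) (0.15). At an unadjusted edgeR p under 0.05, 3 lipid droplet genes were higher (Lipe, Pnpla2 and Hilpda) and 3 lower (Gpat3, Dgat2 and Fitm2). DESeq2 called 1 higher (Hilpda) and 3 lower (Fitm1, Gpat3 and Dgat2), and limma-voom 0 higher and 2 lower (Gpat3 and Fitm2).

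Among 6 tested lipoprotein receptors 1 rose and 5 did not pass (median log2 fold change 0.36). Scarb1, which encodes the high density lipoprotein receptor SR-B1, a relative of CD36, was at 774, 925, 783, 977 and 869 CPM in KO-labelled libraries 1 to 5, against 263, 265, 287, 298 and 351 CPM in controls 1 to 5. The groups were far apart, a 2.95-fold rise (log2 fold change 1.56 ± 0.09 SE, edgeR adjusted p = 2.5e-07). Vldlr was at 1.49 ± 0.445 CPM in the KO-labelled libraries and 0.879 ± 0.309 CPM in controls (SD, n = 5 each; adjusted p = 0.085).

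**Figure D5:**
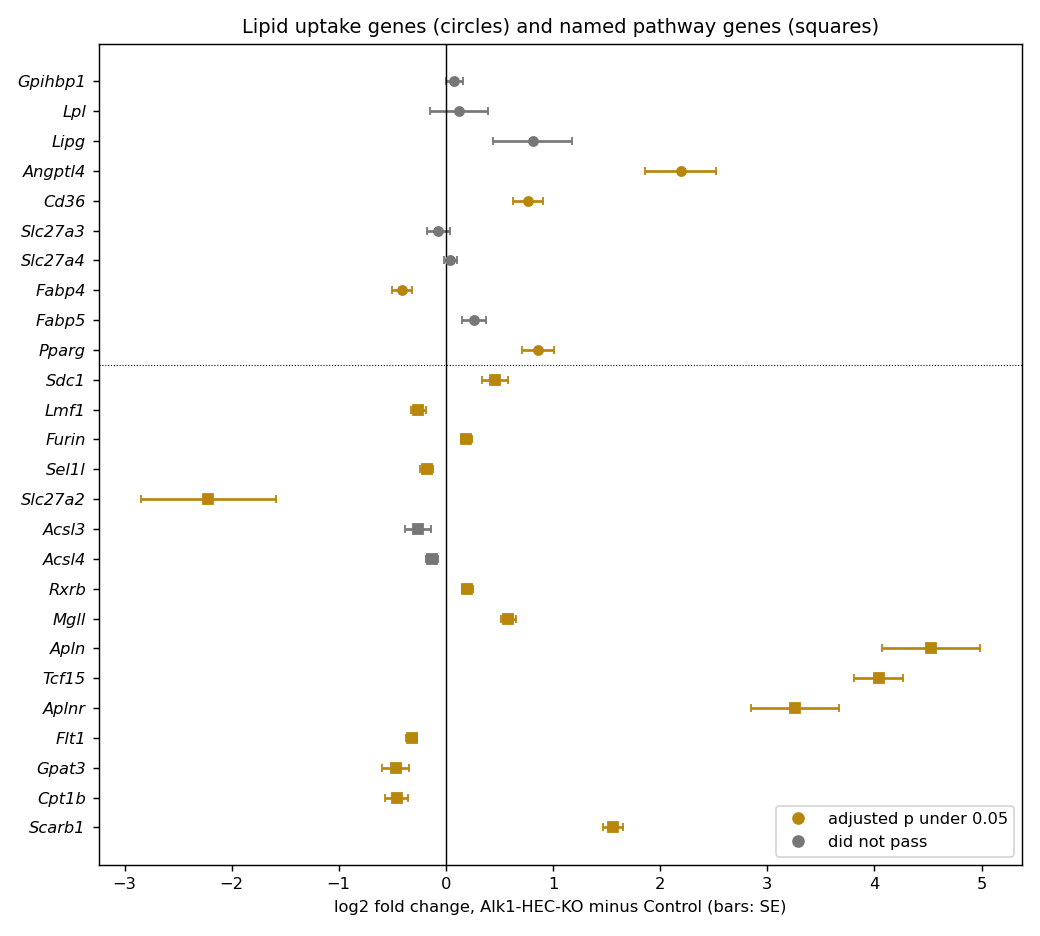
Log2 fold change of the KO-labelled libraries against the controls with its SE (x axis) for the 10 capillary lipid uptake genes (circles) and related genes averaging at least 5 CPM (squares), in gold where the adjusted p was under 0.05 (edgeR, all genes). Of the genes drawn, Apln, Tcf15, Aplnr, Angptl4 and Scarb1 lie farthest to the right (4.53, 4.04, 3.26, 2.19 and 1.56), while Slc27a2 (-2.22) lies farthest to the left.

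Markers of other cell types differed in part between the groups. Bile duct markers summed to 361 to 617 CPM in the KO-labelled libraries and 183 to 264 CPM in controls, with 5 of 6 higher (Spp1, Epcam, Krt19, Sox9 and Cldn7), and mural cell markers to 129 to 176 CPM in the KO-labelled libraries and 63.2 to 108 CPM in controls, with 2 of 6 higher (Rgs5 and Kcnj8) and 4 that did not pass. Stellate cell and fibroblast markers summed to 206 to 275 CPM in the KO-labelled libraries and 117 to 208 CPM in controls, with 3 of 10 higher (the collagen genes Col1a1, Col1a2 and Col3a1) and 7 that did not pass. B cell markers summed to 56 to 103 CPM in the KO-labelled libraries and 29.3 to 50.3 CPM in controls, with 1 of 5 higher (Ighm) and 4 that did not pass. Of 13 hepatocyte markers 4 were lower (Cyp2e1, Cyp3a11, Apoa2 and Apob) and 9 did not pass, with a median log2 fold change of -1.1 and summed levels of 602 to 1280 CPM in the KO-labelled libraries and 598 to 2100 CPM in controls. Of 7 markers of T and NK cells 2 were lower (Cd3d and Trac), and their sum was 33 to 77.9 CPM in the KO-labelled libraries and 33.3 to 46.7 CPM in controls. The part of these cells, or of Kupffer cells and macrophages, in the levels of Angptl4, Cd36, Pparg and Fabp4 was not tested.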

How the data were processed

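RNA of mouse hepatic endothelial cells was sequenced in 10 libraries, 5 for each genotype, and the titles gave group and replicate number. The submitters' processing notes name Trim Galore 0.6.4, kallisto 0.4.6 and the build GRCm38.p6. The deposited files hold estimated counts per gene, which need not be whole and which share reads between like transcripts, and TPM values per gene computed by the authors. How transcripts were summed to genes, and with which annotation, is not stated in these sources. Of 55385 identifiers 55144 matched a GENCODE M21 gene, 54487 of them with the version, and coordinates are from GENCODE M21 (GRCm38).

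Counts were rounded and tested with edgeR 4.0.16 (R 4.3.3): filterByExpr with a minimum count of 10, TMM scaling, a robust quasi-likelihood fit on genotype alone, and Benjamini-Hochberg adjustment over the 15043 genes tested, which held 99.87 to 99.9% of the counts. CPM use TMM-scaled totals. Depth was nearly equal, and counting error weighs most on genes with few counts, such as Lipg. No pair of libraries agreed within sampling noise (chi-square per degree of freedom 10.38 to 29.62). Nothing says that libraries came from separate animals, so the p-values reflect only how these samples varied, and that variation may be technical. Alternatives were DESeq2 1.42.0, limma 3.58.1 (voom, and log2 TPM with a pseudocount of 1 or 0.1), other scalings and filters, length offsets, a replicate block, each library left out, and controls 4 and 5 left out, which stood apart in earlier work on these data. The procedure was tested on simulated data.

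The 10 genes, the lists and the tests were chosen with earlier results of these data known. Named from each list were called genes averaging 5 CPM or more, up to 4 by size of change, or the 2 with the smallest p, and genes nearest in profile were taken for the called lipid uptake genes. Any other gene was named after its values were seen. A listed gene may be counted without being reported by name. Promoter windows are from RefSeq.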

Additional observations from a re-analysis of the deposited data

Results flagged for a closer look

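Among 56 groups of 5 libraries screened for a library far from the rest (28 genes in each of both groups), 3 were found, and chance gives about 1 in 20. Lpl in control 3 was at 90.1 CPM, and the nearest control was at 49.2 CPM. Flt1 in control 4 was at 844 CPM, and the nearest control was at 805 CPM. Gpat3 in control 3 was at 6.76 CPM, and the nearest control was at 9.49 CPM.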

How the results depend on the processing

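Angptl4, Cd36 and Pparg stayed higher and Fabp4 stayed lower, each past the threshold, under all 22 alternatives, and leaving out a library gave 3 to 4 of the 10 genes rising and 1 falling. Estimates that had not passed turned sign for Lpl (-0.09) and Slc27a4 (-0.01) without controls 4 and 5, and for Slc27a3 with limma on log2(TPM + 1) or log2(TPM + 0.1) (0.04 each). Against 2959 genes called in all, 1940 were called without controls 4 and 5, 866 of them lower, and between 2315 (without control 4) and 2870 with 1 library left out. Against 1366 lower calls, limma gave 685 with log2(TPM + 1) and 687 with log2(TPM + 0.1), and the median of all genes stood at 0.081 and 0.098 in these fits. Against 8 falling genes in the 9 lists there were 13 with DESeq2, 3 and 4 with limma on log2(TPM + 1) and log2(TPM + 0.1), 5 without controls 4 and 5, and 4 to 10 with 1 library left out, the lowest without KO-labelled library 2 or control 2 or 4. The cause was not tested, beyond the fewer samples where libraries were left out. Correlations between the deviations of same-numbered libraries 1 to 5 were -0.2, 0.35, 0.01, 0.11 and 0.28. KO-labelled libraries 2 and 4 correlated best with the control of their own number, and libraries 1, 3 and 5 with another control. Whether the numbers mark a shared batch was not tested. With the replicate block 2567 genes were called, with 3 of the 10 rising and 1 falling and 10 rising and 7 falling in the lists. Lipg was lost under a minimum count of 50.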
